A study of Mus musculus with 12 samples.

Results

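The genes described here are 10 imprinted genes that act on growth, each found by its symbol among the 55487 genes listed for every library. Those expressed from the maternal allele are H19, Meg3, Cdkn1c, Phlda2 and Grb10, and those expressed from the paternal allele are Igf2, Dlk1, Ndn, Mest and Plagl1. Their levels were measured by RNA sequencing of LSK cells, the lineage-negative, Sca1-positive and c-Kit-positive compartment of mouse bone marrow in which haematopoietic stem cells and their nearest progeny are found. The series has 12 libraries, 4 of each of 3 genotypes. The first genotype is labelled Yy1-/- Smc3+/-, with Yy1 deleted and 1 allele of Smc3, a core subunit of the cohesin ring, altered. The second is labelled Yy1-/-, and Yy1 encodes the zinc finger DNA-binding protein Yin Yang 1. The third, Yy1+/+, is the wild-type control. The deletion of Yy1 is shared by both of the first groups, and the labels used here name no Cre driver, age, sex, strain or number of animals per library. The summed expected count of a library was between 38671354 and 69086104.

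Imprinted genes are transcribed mainly from the allele of 1 parent, set by DNA methylation laid down in the germ line at imprinting control regions. Many of them control prenatal growth: in the mouse, paternally expressed genes such as Igf2 tend to promote growth, and maternally expressed genes such as Cdkn1c, Phlda2 and Grb10 tend to restrain it. In mouse bone marrow, several of them, among them H19, Dlk1, Meg3, Cdkn1c and Ndn, are known for high expression in the most quiescent haematopoietic stem cells. The deposited gene tables do not separate the alleles, so the levels below are sums over both and say nothing of which allele was read.

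The labels were checked on Yy1 and Smc3 first. Yy1 had 0.772, 0.795, 4.45 and 0.944 CPM (counts scaled to a common library total with TMM factors) in replicates 1 to 4 of the libraries labelled Yy1-/- Smc3+/-, 0.407, 0.996, 5.01 and 12.2 CPM in Yy1-/- and 33.9 to 41.3 CPM in Yy1+/+. It was lower in each of these 8 libraries than in any Yy1+/+ library, and each still held some reads; both groups are called without Yy1 below, after their labels. Smc3 averaged 301 CPM in the libraries labelled Yy1-/- Smc3+/-, 255 CPM in Yy1-/- and 177 CPM in Yy1+/+, so its mRNA was not lower under the Smc3+/- label, and that genotype is named as labelled. Of the sort markers, Ly6a averaged 230 CPM in the libraries labelled Yy1-/- Smc3+/-, 251 CPM in Yy1-/- and 187 CPM in Yy1+/+, and Kit averaged 245, 176 and 769 CPM in the same order.

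Of the 10 imprinted genes, 6 were lower in both groups without Yy1: Meg3, Cdkn1c, Phlda2, Grb10, Dlk1 and Ndn. Those 6 were 3.2-fold to 153-fold lower in the libraries labelled Yy1-/- Smc3+/- than in Yy1+/+, by the ratio of scaled counts or, for Meg3, by a bound of at least 115-fold, and 5.02-fold to 44.9-fold lower, with a bound of at least 121-fold for Meg3, in Yy1-/-. The ratios of 153-fold and 44.9-fold are those of Phlda2 and rest on 12 and 43 counts in the groups without Yy1. Mest did not pass the test. H19, Igf2 and Plagl1 had too few counts to be kept for it. All 15 genes on a list of stem cell markers, chosen with earlier results of these data known, fell in both groups as well. Of all genes tested, 13.4% fell in the libraries labelled Yy1-/- Smc3+/- and 15.6% in Yy1-/-. In bulk RNA, fewer cells of a type and less RNA per cell cannot be told apart.

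In numbers, 7 of the 10 genes passed the filter on low counts, which needs about 10 counts in 4 libraries. When the libraries labelled Yy1-/- Smc3+/- were set against Yy1+/+, 6 of these 7 fell and 0 rose, where 24.7% of all 16649 genes tested changed, 13.4% downward and 11.3% upward (edgeR quasi-likelihood test, Benjamini-Hochberg adjusted p under 0.05 over all genes). In Yy1-/- against Yy1+/+, 6 of the 7 fell and 0 rose, where 30.1% of all genes tested changed, 15.6% downward and 14.5% upward. On the log2(TPM + 1) scale the split over all genes leaned further down, with 3480 lower and 1299 higher in the libraries labelled Yy1-/- Smc3+/- and 4327 and 1445 in Yy1-/-, against 2233 and 1884, then 2595 and 2420, in the edgeR fit. The median log2 fold change of the 7 was -3.13 in the first comparison, against 0.02 for all genes tested, and -3.86 in the second, against 0.01. The 2 comparisons share the Yy1+/+ libraries, and Meg3, Dlk1 and Phlda2 met the filter in enough libraries only through Yy1+/+. These counts and medians, and the p-values given below for Meg3, Dlk1 and Phlda2, are therefore a description. All 4 tested maternally expressed members fell in both, and 2 of 3 tested paternally expressed ones, Dlk1 and Ndn. For each of the 6 genes that fell, every library of either group without Yy1 was below every Yy1+/+ library, a separation that 17.6% of all genes tested had in the libraries labelled Yy1-/- Smc3+/- and 17.5% had in Yy1-/-. The labels do not say that libraries came from separate animals, so the p-values measure the spread between these libraries.

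**Figure D1:**
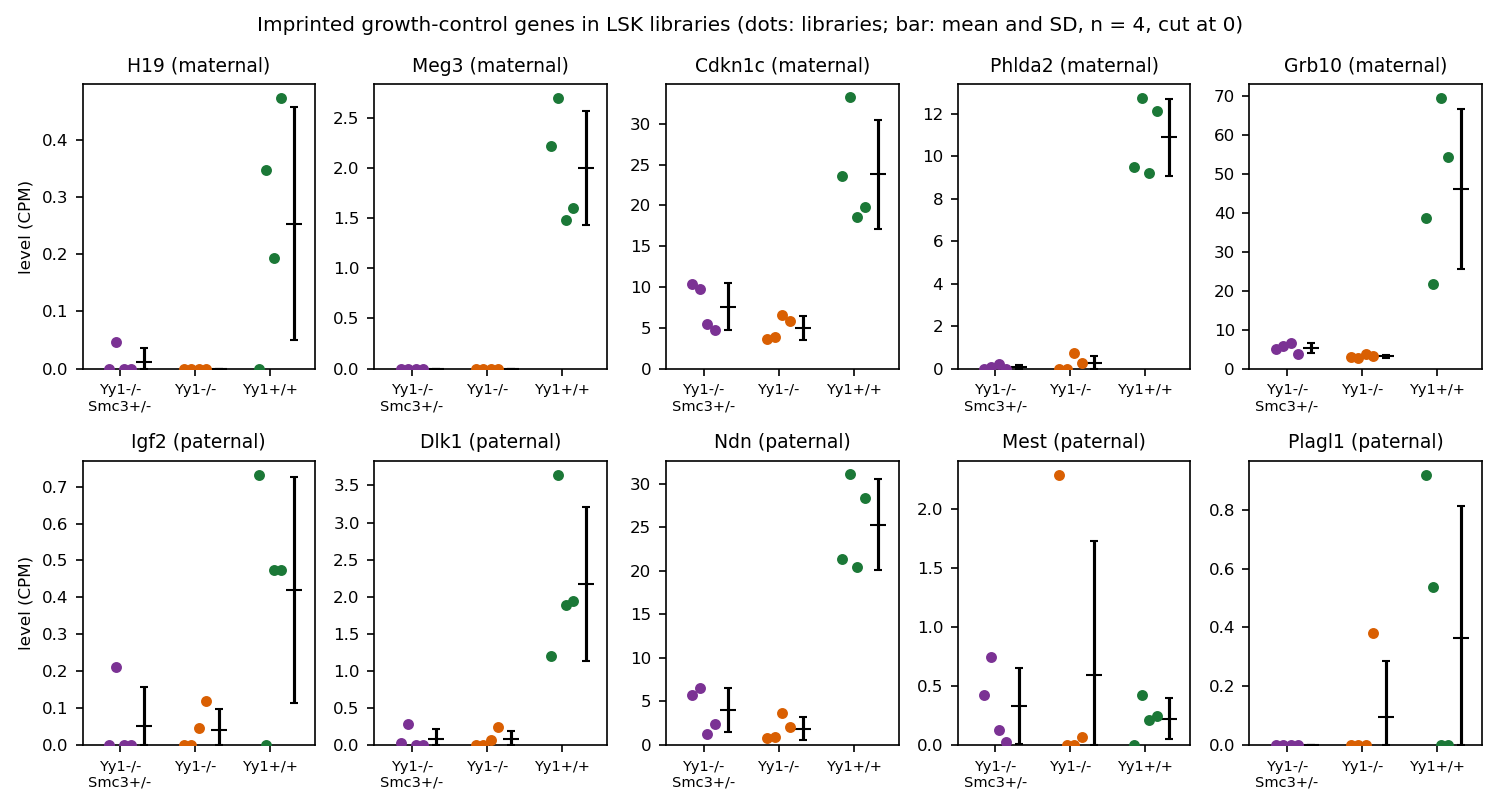
Levels in CPM (vertical axes, from 0) of the 10 imprinted genes in each library, grouped by genotype on the horizontal axes, with the mean and SD of 4 libraries beside the points. The Yy1+/+ points stand above all others for Meg3, Cdkn1c, Phlda2, Grb10, Dlk1 and Ndn, while those of H19, Igf2, Mest and Plagl1 overlap with other groups.

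The promoters of the genes that fell are shown because Yy1 encodes a DNA-binding protein. The sequences are from RefSeq (GRCm38.p6), run 5′ to 3′ on the strand of the gene from 250 bases before to 50 bases after the start site, which is position 1, and hold in capitals each match to the motifs searched, GCCAT and CCATNTT, on either strand. Cdkn1c and H19 had no entry in the promoter table, and 8 of the 10 genes had 15 promoters there. Grb10 and Meg3 each have a second promoter in the table with no match to either motif (chr11:12037371-12037670 and chr12:109545148-109545447), and for both genes the promoter shown is the one that holds matches.
Meg3 (chr12:109540746-109541045, plus strand): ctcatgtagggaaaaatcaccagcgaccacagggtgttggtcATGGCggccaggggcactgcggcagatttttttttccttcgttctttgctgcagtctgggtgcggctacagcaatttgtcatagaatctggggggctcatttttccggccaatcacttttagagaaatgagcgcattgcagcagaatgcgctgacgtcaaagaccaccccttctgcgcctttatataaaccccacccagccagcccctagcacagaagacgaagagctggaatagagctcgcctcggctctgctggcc
Dlk1 (chr12:109452573-109452872, plus strand): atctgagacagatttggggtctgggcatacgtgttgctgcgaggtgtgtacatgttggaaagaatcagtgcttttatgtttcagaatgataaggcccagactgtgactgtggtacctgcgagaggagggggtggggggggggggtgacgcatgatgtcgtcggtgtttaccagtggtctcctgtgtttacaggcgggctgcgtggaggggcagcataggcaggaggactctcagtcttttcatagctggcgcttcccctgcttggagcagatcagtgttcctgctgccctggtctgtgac
Phlda2 (chr7:143502475-143502774, minus strand): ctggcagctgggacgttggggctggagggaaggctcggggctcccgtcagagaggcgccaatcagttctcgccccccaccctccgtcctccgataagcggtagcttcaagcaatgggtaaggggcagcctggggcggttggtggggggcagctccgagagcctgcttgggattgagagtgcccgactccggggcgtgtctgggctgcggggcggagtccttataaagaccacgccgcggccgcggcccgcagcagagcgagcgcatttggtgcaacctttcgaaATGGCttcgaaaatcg
Grb10 (chr11:12027922-12028221, minus strand): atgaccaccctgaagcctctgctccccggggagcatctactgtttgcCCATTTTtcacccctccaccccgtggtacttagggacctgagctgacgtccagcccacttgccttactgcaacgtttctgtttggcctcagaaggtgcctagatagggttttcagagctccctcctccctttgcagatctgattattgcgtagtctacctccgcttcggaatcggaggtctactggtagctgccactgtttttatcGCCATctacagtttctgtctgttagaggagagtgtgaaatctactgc
Ndn (chr7:62348027-62348326, plus strand): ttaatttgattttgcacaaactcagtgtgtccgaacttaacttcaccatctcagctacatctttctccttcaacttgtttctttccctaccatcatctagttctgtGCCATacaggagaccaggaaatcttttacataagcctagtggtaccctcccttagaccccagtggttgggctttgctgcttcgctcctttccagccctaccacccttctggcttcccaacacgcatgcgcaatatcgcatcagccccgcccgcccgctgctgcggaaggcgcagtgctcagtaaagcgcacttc
In Meg3 the match is ATGGC, the reverse complement of GCCAT, at position -208 from the start site, and in Phlda2 the same letters stand at position 35, after the start site. The Grb10 promoter shown had CCATTTT at position -203 and GCCAT at position 4. Ndn had GCCAT at position -144, and Dlk1 had neither motif in this window. Over all 15 promoters, GCCAT was in 6 and CCATNTT in 2, while 40.5% and 16.1% of the 32851 promoters in the table held them. The 4 letters CCAT are common to both motifs, so a match to each can overlap. These are matches of letters only.

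The level of each gene in wild-type LSK cells is best compared per length, as TPM, a share of all transcripts corrected for length. Phlda2 was the highest, with 33.5 ± 3.92 TPM in Yy1+/+ (SD, n = 4), and its libraries, at 30.3 to 39.1 TPM, lay above those of the next gene. Cdkn1c had 20.3 ± 3.13 TPM, Grb10 13.9 ± 7.17 TPM and Ndn 10.2 ± 1.43 TPM. The ranges of Cdkn1c and Grb10 overlapped, as did those of Grb10 and Ndn. Dlk1 with 2.04 ± 0.74 TPM and Meg3 with 1.93 ± 0.74 TPM overlapped with each other and lay below Ndn in every library. The other 4 were lower on average, at 1.1 TPM for Igf2, 0.172 for H19, 0.133 for Mest and 0.0975 for Plagl1, and each of them had at least 1 Yy1+/+ library at 0.

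The order was another one in the groups without Yy1. Cdkn1c was the highest, with a mean of 5.82 TPM in the libraries labelled Yy1-/- Smc3+/- and 3.58 TPM in Yy1-/-. Ndn with 1.45 TPM and Grb10 with 1.35 TPM came next in the libraries labelled Yy1-/- Smc3+/-, and their ranges overlapped. In Yy1-/-, Grb10 with 0.775 TPM, Ndn with 0.643 TPM and Phlda2 with 0.635 TPM overlapped as well. Phlda2, the highest in Yy1+/+, thus lay below Cdkn1c in every library of both groups, and its mean was 0.2 TPM in the libraries labelled Yy1-/- Smc3+/-. Summed over the 10 genes, the level was 5.51 to 13.3 TPM in the libraries labelled Yy1-/- Smc3+/-, 3.79 to 8.82 TPM in Yy1-/- and 77.2 to 90.8 TPM in Yy1+/+.

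Dlk1 and Meg3 lie side by side in an imprinted domain on chromosome 12. Meg3 (ENSMUSG00000021268.17, chr12:109541001-109571726, plus strand, in GRCm38 like all gene positions here) is a maternally expressed long non-coding RNA. It had 0 counts in all 4 libraries labelled Yy1-/- Smc3+/- and in all 4 Yy1-/- libraries, against 2.22, 2.7, 1.49 and 1.6 CPM in Yy1+/+ replicates 1 to 4, which are 118, 171, 69 and 71 counts. Taken over a group, 0 counts allow a level of up to 0.018 CPM in the libraries labelled Yy1-/- Smc3+/- and 0.0171 CPM in Yy1-/-, the value of 3 counts. Meg3 was thus at least 115-fold lower in the libraries labelled Yy1-/- Smc3+/- (edgeR adjusted p = 0.00112) and at least 121-fold lower in Yy1-/- (edgeR adjusted p = 0.000942). These limits cover counting error only. Meg3 met the filter on low counts only through Yy1+/+, so a call of it could only be downward and the p-values are a description.

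Dlk1 (ENSMUSG00000040856.17, chr12:109452823-109463336, plus strand) encodes a membrane protein with EGF repeats, related to the Notch ligands, and is expressed from the paternal allele. It had 0.0221, 0.281, 0 and 0 CPM in the libraries labelled Yy1-/- Smc3+/-, 0, 0, 0.0673 and 0.239 CPM in Yy1-/- and 1.2, 3.65, 1.9 and 1.94 CPM in Yy1+/+. A few reads thus remained in 4 of the 8 libraries without Yy1, and the groups did not overlap with Yy1+/+. Its log2 fold change was -4.78 ± 1.41 (SE) in the libraries labelled Yy1-/- Smc3+/- (edgeR adjusted p = 0.0269) and -4.79 ± 1.41 in Yy1-/- (edgeR adjusted p = 0.0227). Both calls rest on few counts, 13 in each of the groups without Yy1 and 469 in Yy1+/+, and each was lost without single libraries. In the libraries labelled Yy1-/- Smc3+/- the edgeR adjusted p was 0.0692, 0.0561, 0.0634, 0.0586 and 0.0533 without their replicates 1, 3 and 4 and without Yy1+/+ replicates 2 and 4. In Yy1-/- it was 0.0563 without Yy1-/- replicate 3 and 0.0501 without Yy1+/+ replicate 2. The log2 fold change of Dlk1 was -7.72 without replicate 2 of the libraries labelled Yy1-/- Smc3+/- and -6.46 without Yy1-/- replicate 4.

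Yy1 itself (chr12:108792973-108820148) is on the same chromosome, 632.7 kb from Dlk1 and 720.9 kb from Meg3. Of the 5 tested genes between Yy1 and Dlk1, 2 rose and 1 fell in both groups without Yy1. Among all genes tested, 11.3% rose and 13.4% fell in the libraries labelled Yy1-/- Smc3+/-, and 14.5% rose and 15.6% fell in Yy1-/-. Those that rose were Slc25a29, at 13.6 CPM in the libraries labelled Yy1-/- Smc3+/-, 14.3 CPM in Yy1-/- and 4.09 CPM in Yy1+/+, and Wars, at 196, 202 and 153 CPM in the same order. The gene that fell was Begain, the tested gene nearest to Dlk1 at 384.6 kb, with a log2 fold change of -3.94 ± 1.15 in the libraries labelled Yy1-/- Smc3+/- (edgeR adjusted p = 0.0257) and -4.45 ± 1.18 in Yy1-/- (edgeR adjusted p = 0.014). Begain met the filter on low counts in enough libraries only through Yy1+/+, so its p-values are a description. Wdr25 and Slc25a47 did not pass the test. The genes between Yy1 and Dlk1 were listed after earlier results were known.

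Cdkn1c and Phlda2 belong to the Kcnq1 domain on chromosome 7, where the maternal allele is expressed. Cdkn1c (ENSMUSG00000037664.13, chr7:143458339-143461050, minus strand) encodes p57, an inhibitor of cyclin-dependent kinases. It had 10.3, 9.71, 5.43 and 4.74 CPM in the libraries labelled Yy1-/- Smc3+/-, 3.56, 3.81, 6.53 and 5.78 CPM in Yy1-/- and 23.6, 33.3, 18.6 and 19.8 CPM in Yy1+/+. It kept more of its level than the other 5 genes that fell, with means of 31.7% of Yy1+/+ in the libraries labelled Yy1-/- Smc3+/- and 20.6% in Yy1-/-. The log2 fold change was -1.66 ± 0.33 in the libraries labelled Yy1-/- Smc3+/- (edgeR adjusted p = 0.00348) and -2.28 ± 0.33 in Yy1-/- (edgeR adjusted p = 0.000571). The antisense gene Gm44732 overlaps Cdkn1c, and the library kit does not mark the strand, so their reads cannot be told apart. The files gave Gm44732 22 counts in the libraries labelled Yy1-/- Smc3+/-, 26 in Yy1-/- and 123 in Yy1+/+, against 1285, 864 and 5107 for Cdkn1c.

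Phlda2 (ENSMUSG00000010760.5, chr7:143501545-143503150, minus strand) encodes a small protein with a pleckstrin homology domain that limits growth of the placenta. It had 0, 0.0936, 0.207 and 0 CPM in the libraries labelled Yy1-/- Smc3+/-, 0, 0, 0.741 and 0.239 CPM in Yy1-/- and 9.49, 12.7, 9.2 and 12.1 CPM in Yy1+/+. In each group without Yy1, 2 of 4 libraries had no count of it at all. The means were 0.69% of Yy1+/+ in the libraries labelled Yy1-/- Smc3+/- and 2.25% in Yy1-/-. The log2 fold change was -7.16 ± 1.42 in the libraries labelled Yy1-/- Smc3+/- (edgeR adjusted p = 0.0036) and -5.46 ± 1.28 in Yy1-/- (edgeR adjusted p = 0.00737). Replicate 3 of each group held most of the remaining counts, 8 of 12 in the libraries labelled Yy1-/- Smc3+/- and 33 of 43 in Yy1-/-. Without it, the log2 fold change was -8.33 in the libraries labelled Yy1-/- Smc3+/- and -7.10 in Yy1-/-.

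Grb10 (ENSMUSG00000020176.17, chr11:11930508-12038683, minus strand) encodes an adaptor that binds the insulin and IGF1 receptors and restrains their signal, and in the mouse it is expressed from the maternal allele in most tissues. It had 4.92, 5.83, 6.52 and 3.8 CPM in the libraries labelled Yy1-/- Smc3+/-, 2.97, 2.79, 3.75 and 3.18 CPM in Yy1-/- and 38.8, 21.8, 69.6 and 54.2 CPM in Yy1+/+. The Yy1+/+ libraries ranged widely, with replicate 2 lowest, as it was for Kit at 422 CPM, against 809 to 981 CPM in the other 3. The log2 fold change of Grb10 was -3.13 ± 0.33 in the libraries labelled Yy1-/- Smc3+/- (edgeR adjusted p = 0.000106) and -3.86 ± 0.34 in Yy1-/- (edgeR adjusted p = 4.23e-05). These were the smallest adjusted p-values among the 7 tested members in both comparisons.

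Ndn (ENSMUSG00000033585.5, chr7:62346569-62350262, plus strand) encodes necdin, a protein of the MAGE family that restrains cell division, and is expressed from the paternal allele in the Prader-Willi domain. It had 5.69, 6.5, 1.29 and 2.41 CPM in the libraries labelled Yy1-/- Smc3+/-, 0.763, 0.976, 3.66 and 2.1 CPM in Yy1-/- and 21.4, 31.1, 20.4 and 28.3 CPM in Yy1+/+. The libraries without Yy1 differed among themselves by several fold, yet none came near the lowest Yy1+/+ library. The log2 fold change was -2.67 ± 0.57 in the libraries labelled Yy1-/- Smc3+/- (edgeR adjusted p = 0.00525) and -3.75 ± 0.6 in Yy1-/- (edgeR adjusted p = 0.000855).

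**Figure D2:**
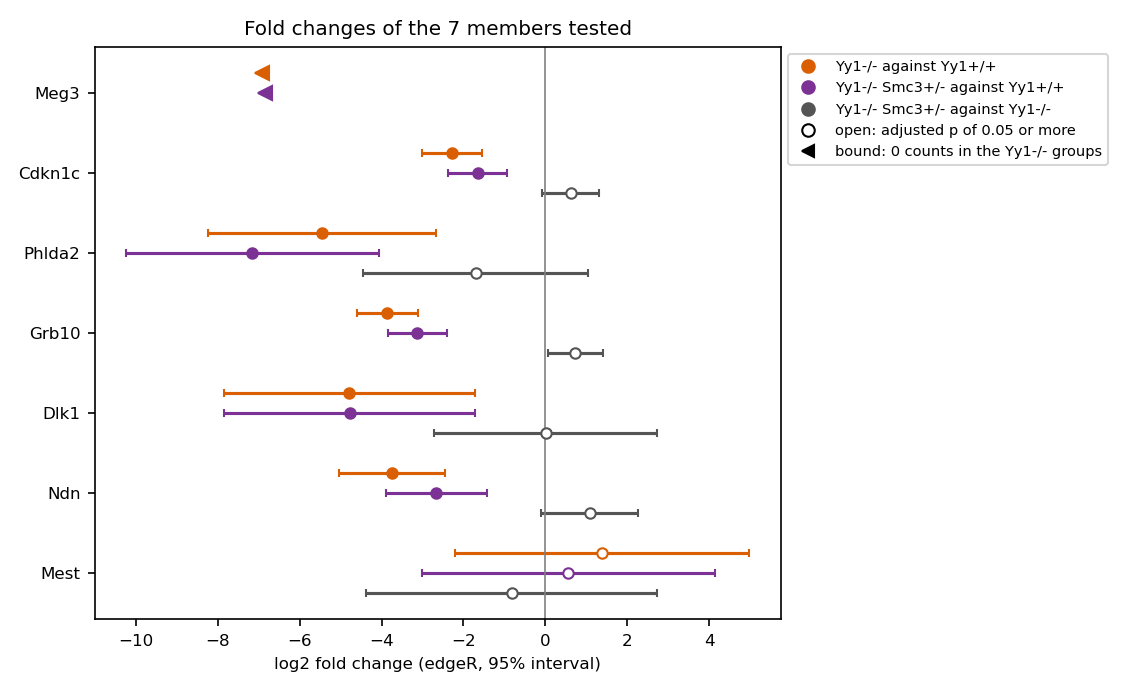
Log2 fold changes (horizontal axis) of the 7 tested genes with 95% intervals from edgeR, for the 3 comparisons of genotypes, with open symbols where the adjusted p was 0.05 or more. Triangles for Meg3 are bounds from 3 counts over the group. All filled symbols lie left of 0, and the grey symbols of the libraries labelled Yy1-/- Smc3+/- against Yy1-/- are all open.

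Mest (ENSMUSG00000051855.15, chr6:30723547-30748465, plus strand), a paternally expressed gene for a protein of the alpha/beta hydrolase fold, was low everywhere. It had 0.419, 0.749, 0.129 and 0.0248 CPM in the libraries labelled Yy1-/- Smc3+/-, 2.29, 0, 0 and 0.0716 CPM in Yy1-/- and 0, 0.426, 0.215 and 0.248 CPM in Yy1+/+. The groups overlapped, and 90 of the 93 counts in Yy1-/- came from replicate 1. The log2 fold change was 0.56, with a 95% interval of -3.01 to 4.14, in the libraries labelled Yy1-/- Smc3+/- (edgeR adjusted p = 0.835) and 1.39, with an interval of -2.22 to 4.99, in Yy1-/- (edgeR adjusted p = 0.564). The second turned to -3.16 without Yy1-/- replicate 1. Copg2 overlaps Mest on the other strand with 13664 counts in the libraries labelled Yy1-/- Smc3+/-, 13997 in Yy1-/- and 19942 in Yy1+/+, so the few reads given to Mest cannot be told apart from those of Copg2.

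H19 and Igf2 form a domain of their own on chromosome 7. H19 (ENSMUSG00000000031.16, chr7:142575529-142578143, minus strand) is a maternally expressed non-coding RNA. It had 0, 2, 0 and 0 counts in the libraries labelled Yy1-/- Smc3+/-, 0 in each Yy1-/- library and 0, 22, 9 and 21 counts in Yy1+/+. Igf2 (ENSMUSG00000048583.16, chr7:142650766-142666816, minus strand) encodes insulin-like growth factor 2 and is expressed from the paternal allele. It had 0, 9, 0 and 0 counts in the libraries labelled Yy1-/- Smc3+/-, 0, 0, 2 and 5 in Yy1-/- and 39, 0, 22 and 21 in Yy1+/+. For both genes 3 of 4 Yy1+/+ libraries held most of the reads of the series, and the remaining one, replicate 1 for H19 and replicate 2 for Igf2, held none.

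Plagl1 (ENSMUSG00000019817.18, chr10:13060504-13131694, plus strand) encodes a zinc finger transcription factor that arrests the cell cycle and, in the mouse, acts on other imprinted genes. It had 0 counts in each library labelled Yy1-/- Smc3+/-, 0, 0, 0 and 16 in Yy1-/- and 49, 34, 0 and 0 in Yy1+/+. Its reads thus came from 3 libraries in all.

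For these 3 genes the summed counts, scaled for depth, can be compared with intervals that cover counting error only. In the libraries labelled Yy1-/- Smc3+/-, H19 was 20.9-fold lower (95% interval 5.51 to 178) than in Yy1+/+, Igf2 was 7.34-fold lower (3.68 to 16.6) and Plagl1 at least 22.3-fold lower. In Yy1-/-, H19 was at least 14.7-fold lower, Igf2 was 9.94-fold lower (4.61 to 25.5) and Plagl1 4.4-fold lower (2.56 to 8.06). In a 2-sided exact permutation test of 4 libraries against 4, p was 0.143 for H19 and for Igf2 and 0.429 for Plagl1 in both comparisons, with Benjamini-Hochberg values of 0.321, 0.321 and 0.643 over 9 tests. The smallest p this design allows is 0.0286. With no filter on low counts, edgeR called H19 lower in Yy1-/- (adjusted p = 0.0429) but not in the libraries labelled Yy1-/- Smc3+/- (adjusted p = 0.154), and called neither Igf2 nor Plagl1.

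By label, the libraries labelled Yy1-/- Smc3+/- differ from Yy1-/- in the altered Smc3 allele. Remaining Yy1 averaged 1.74 ± 1.81 and 4.65 ± 5.43 CPM in them (SD, edgeR adjusted p = 0.911), and Smc3 mRNA 301 and 255 CPM. A comparison of these 2 groups therefore does not isolate that allele. None of the 7 tested genes passed with DESeq2 or with edgeR, where 0.036% of all genes tested, 6 genes, passed with edgeR, 0.00601% downward and 0.03% upward. At an unadjusted p under 0.05, 882 of 16649 genes passed, 1 of them a member. That member was Grb10, with a log2 fold change of 0.73, a 95% interval of 0.06 to 1.41, an unadjusted edgeR p of 0.036 and an adjusted p of 0.904. All 4 of its values in the libraries labelled Yy1-/- Smc3+/-, from 3.8 CPM, lay above the 4 in Yy1-/-, up to 3.75 CPM, a separation upward that 1.13% of all genes tested had, and no tested member lay wholly below, which 0.883% of all genes tested did. The other log2 differences were 0.62 (-0.08 to 1.32) for Cdkn1c, 1.08 (-0.1 to 2.27) for Ndn, 0.01 (-2.71 to 2.73) for Dlk1, -1.7 (-4.45 to 1.05) for Phlda2 and -0.82 (-4.38 to 2.74) for Mest. The intervals of Dlk1 and Mest leave room for several-fold differences in either direction, and that of Phlda2 for a several-fold lower level. Meg3 had 0 counts in both groups and gave no fold. Without the 3 libraries that held the most Yy1 reads among the 8, each above 4 CPM, which leaves 2 Yy1-/- libraries, Ndn was called higher in the libraries labelled Yy1-/- Smc3+/- (log2 fold change 2.47, edgeR adjusted p = 0.0426).

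Among the Yy1-/- libraries, the imprinted reads that remained were unevenly spread. Replicates 3 and 4, which had 5.01 and 12.2 CPM of Yy1, held all the Igf2, Dlk1 and Phlda2 reads of that group. They also had the higher values of Cdkn1c, Ndn and Grb10 of the 4 libraries. Their summed level of 15 stem cell marker genes was 223 and 212 CPM, against 114 and 188 CPM in replicates 1 and 2. Not all values followed that order: Mest had 90 of its 93 counts in replicate 1, and markers of monocytes and neutrophils summed to 9710 and 9920 CPM in replicates 1 and 2, against 4190 and 7140 CPM in replicates 3 and 4. Replicate 1 also stood apart from the other 11 libraries on the second principal component of all tested genes, at -115, where the others lay between -47.3 and 63.4. In the libraries labelled Yy1-/- Smc3+/-, replicate 3 had 4.45 CPM of Yy1 and the highest Phlda2 and Grb10, but its Ndn was the lowest of the 4, and replicate 2 held all the H19 and Igf2 reads. Whether the remaining Yy1 has a part in these values was not tested. Without replicates 3 and 4 of Yy1-/- and replicate 3 of the libraries labelled Yy1-/- Smc3+/-, the same number of imprinted genes, 6, fell in each group against Yy1+/+. In the fit of all 12 libraries, 13.4% of all genes tested fell in the libraries labelled Yy1-/- Smc3+/- and 15.6% in Yy1-/-. Meg3, Dlk1 and Phlda2 met the filter in enough libraries only through Yy1+/+, so the count of 6 is a description.

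Markers of stem cells moved together with the imprinted genes. All 15 markers on the stem cell list, such as Meis1 and Hlf, fell in both groups without Yy1, with median log2 fold changes of -2.92 in the libraries labelled Yy1-/- Smc3+/- and -2.87 in Yy1-/-. Of all genes tested, 13.4% and 15.6% fell in the same order, and the list was chosen with earlier results of these data known. Their summed level was 169 to 245 CPM in the libraries labelled Yy1-/- Smc3+/-, 114 to 223 CPM in Yy1-/- and 1450 to 1660 CPM in Yy1+/+, and no marker was at 0. The summed level of the 10 imprinted genes was 11.0 to 23.4 CPM in the libraries labelled Yy1-/- Smc3+/-, 7.57 to 14.8 CPM in Yy1-/- and 98.3 to 122 CPM in Yy1+/+. The part of the stem cell share in the fall of the imprinted genes was not tested.

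Markers of other cell types that a marrow sample could hold were read too. Beside the counts below, 13.4% of all genes tested fell and 11.3% rose in the libraries labelled Yy1-/- Smc3+/-, and 15.6% and 14.5% in Yy1-/-. Of 12 stromal markers 5 were tested; 1 fell in the libraries labelled Yy1-/- Smc3+/- and 0 in Yy1-/-. Their sums overlapped, at 40.2 to 76.5 CPM in the libraries labelled Yy1-/- Smc3+/-, 24.8 to 39.4 CPM in Yy1-/- and 27.1 to 69.4 CPM in Yy1+/+, and 3 of the 12 were at 0 in each group, among them Lum in all 3 groups. Markers of monocytes and neutrophils summed to 2740 to 16200 CPM in the libraries labelled Yy1-/- Smc3+/-, 4190 to 9920 CPM in Yy1-/- and 2980 to 10900 CPM in Yy1+/+, so the sums overlapped, but of the 14 markers 3 rose in the libraries labelled Yy1-/- Smc3+/- and 5 in Yy1-/-, and 0 fell. Among those that rose in both groups were Ms4a6c and Ctsg, chosen after their values were seen. Markers of erythroid cells and megakaryocytes were lower in sum in every library without Yy1, at 79.9 to 386 CPM in the libraries labelled Yy1-/- Smc3+/-, 169 to 609 CPM in Yy1-/- and 723 to 1250 CPM in Yy1+/+, and 3 and 2 of 12 fell. Car1, the highest of them in Yy1+/+, averaged 33.2, 60.1 and 432 CPM in the same order of groups, and Itga2b averaged 122, 112 and 123 CPM. Lymphoid markers were higher in sum in every library without Yy1, at 27.7 to 62.1 CPM in the libraries labelled Yy1-/- Smc3+/-, 24.0 to 37.4 CPM in Yy1-/- and 11.1 to 20.9 CPM in Yy1+/+, and 4 and 3 of 10 tested rose. Endothelial markers summed to 64.9 to 116 CPM in the libraries labelled Yy1-/- Smc3+/-, 67.6 to 96.8 CPM in Yy1-/- and 113 to 167 CPM in Yy1+/+, and of 10 tested 1 fell and 0 rose in the libraries labelled Yy1-/- Smc3+/- and 1 fell and 1 rose in Yy1-/-. The part of these cell types in the levels of the imprinted genes was not tested.

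**Figure D3:**
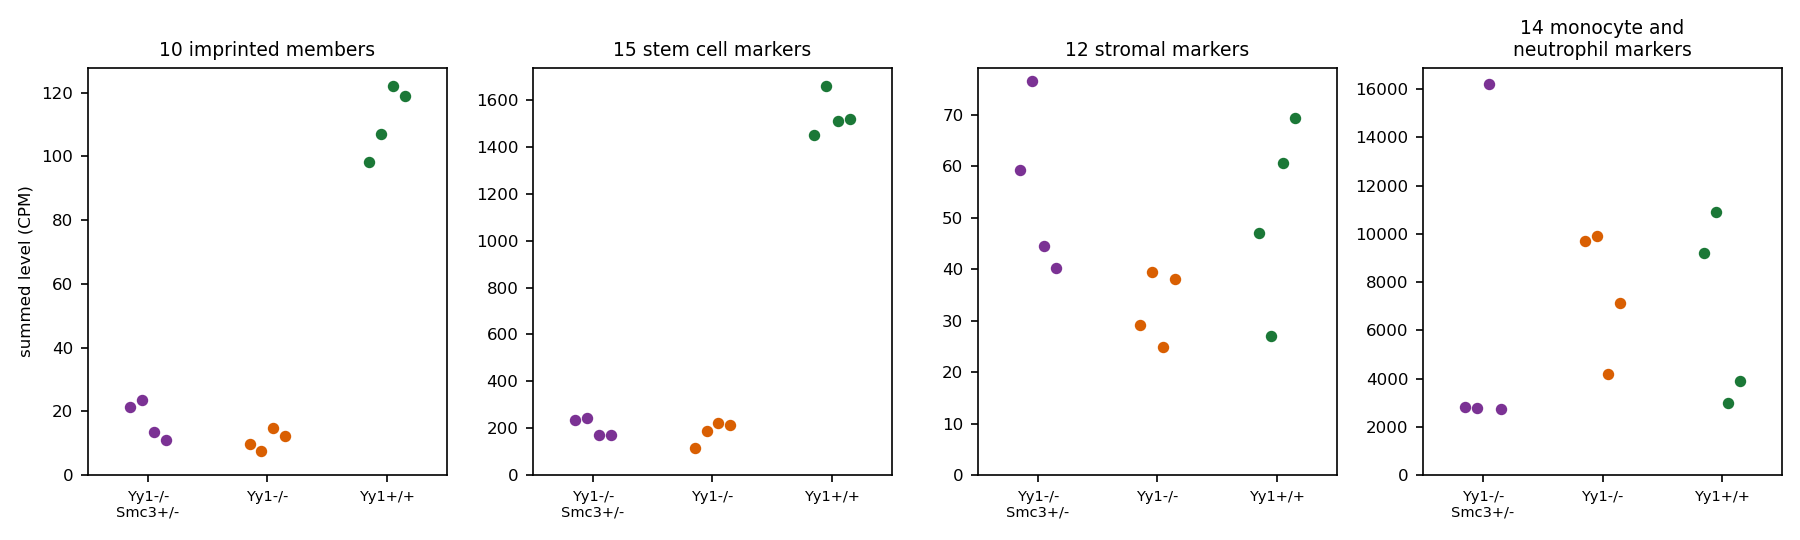
Summed CPM (vertical axes, from 0) of the 10 imprinted genes and of markers of stem, stromal and monocyte or neutrophil cells in each library, by genotype. The first 2 panels separate Yy1+/+ from both other genotypes, at 98.3 CPM or more and 1450 CPM or more, and the other 2 do not.

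Other imprinted genes were read from a list of 53, of which 30 were tested. In the libraries labelled Yy1-/- Smc3+/-, 11 of the 30 fell and 0 rose (36.7%, against 13.4% of all genes tested), with a median log2 fold change of -0.68. In Yy1-/-, 10 fell and 0 rose (33.3%, against 15.6%), with a median of -0.47. Snrpn and Sfmbt2 met the filter on low counts in enough libraries only through Yy1+/+, so these shares and medians are a description. Of the genes listed as maternally expressed 6 of 17, and of those listed as paternally expressed 4 of 12, fell in the libraries labelled Yy1-/- Smc3+/-, and 6 and 3 in Yy1-/-. Whether each of these genes is imprinted in LSK cells was not measured. Gnas, counted from both, fell in each.

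Peg13, a paternally expressed non-coding RNA, had 15.4 ± 5.53 CPM in the libraries labelled Yy1-/- Smc3+/-, 10.9 ± 4.1 CPM in Yy1-/- and 70.8 ± 7.86 CPM in Yy1+/+ (SD, n = 4 each). Its log2 fold change was -2.2 ± 0.32 in the libraries labelled Yy1-/- Smc3+/- (edgeR adjusted p = 0.000587) and -2.69 ± 0.32 in Yy1-/- (edgeR adjusted p = 0.000196). Tspan32, a tetraspanin of blood cells near the Kcnq1 domain, had -1.3 ± 0.17 and -1.34 ± 0.17 in the same order (edgeR adjusted p = 0.000327 and 0.000247). Gnas, which encodes the stimulatory G protein subunit, averaged 569 ± 106 CPM in the libraries labelled Yy1-/- Smc3+/-, 461 ± 51.6 CPM in Yy1-/- and 884 ± 56.1 CPM in Yy1+/+, with log2 fold changes of -0.64 ± 0.14 and -0.94 ± 0.15 (edgeR adjusted p = 0.00756 and 0.000759). Slc22a3, an organic cation transporter of the Igf2r domain, fell too, with -1.01 ± 0.17 and -0.78 ± 0.17 (edgeR adjusted p = 0.00158 and 0.0056). Sgce, the sarcoglycan gene beside Peg10, and Ppp1r9a of the same domain had -1.89 ± 0.42 and -1.88 ± 0.42 in Yy1-/- (edgeR adjusted p = 0.00567 and 0.00607), and -1.55 ± 0.42 and -1.72 ± 0.42 in the libraries labelled Yy1-/- Smc3+/- (edgeR adjusted p = 0.0175 and 0.0111). Cd81, another tetraspanin gene near the Kcnq1 domain, passed the test in the libraries labelled Yy1-/- Smc3+/- (-1, edgeR adjusted p = 0.0067) and had -0.56 in Yy1-/- (edgeR adjusted p = 0.0749).

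**Figure D4:**
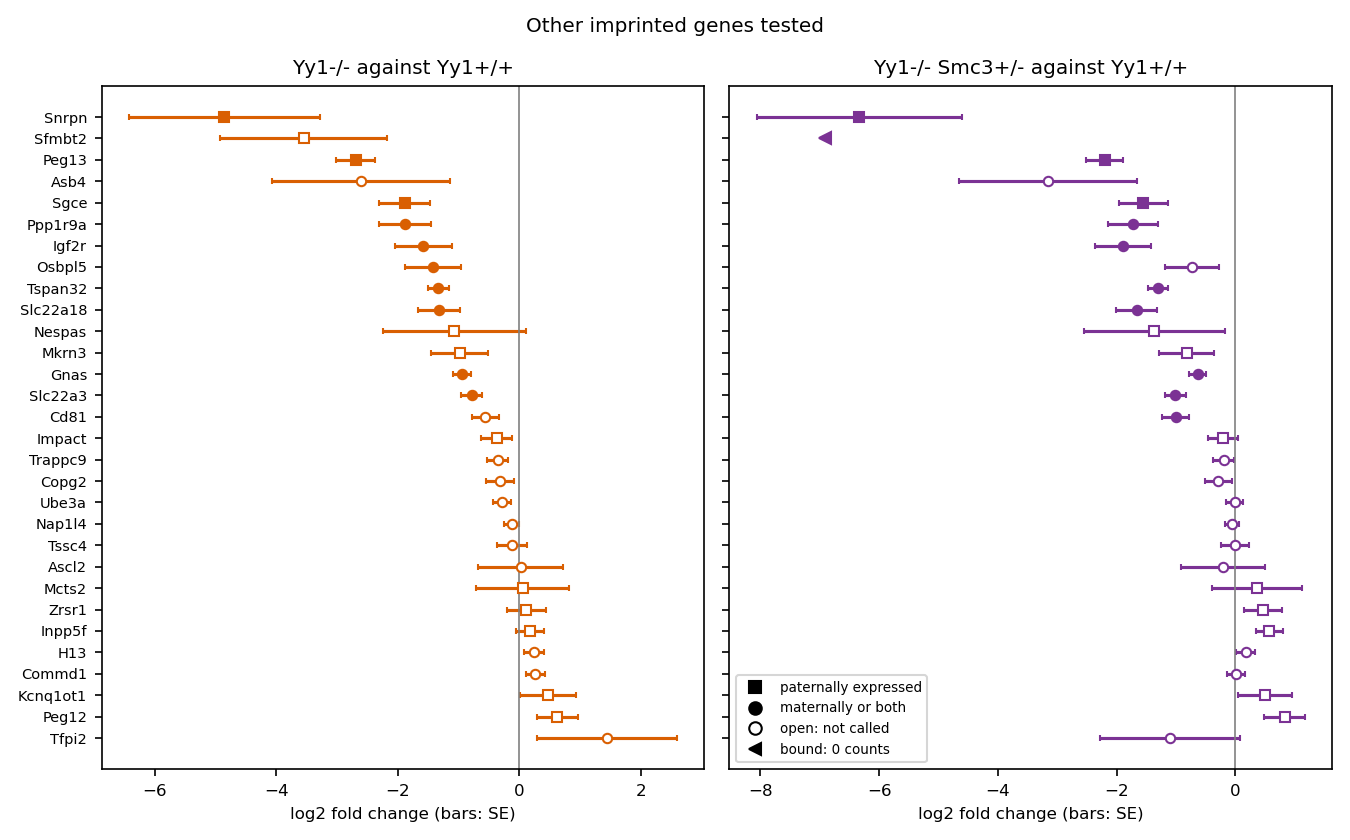
Log2 fold changes (horizontal axes, bars: SE) of the 30 other imprinted genes tested, for Yy1-/- (left) and the libraries labelled Yy1-/- Smc3+/- (right), each set against Yy1+/+. Squares are genes listed as paternally expressed, filled symbols are genes that changed, and the 10 and 11 filled ones, the triangle for a bound among them, all lie left of 0.

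Genes next to the 10 imprinted genes were counted to see how far the falls reached along the chromosome. Within 500 kb, 57 neighbours were tested, and in the libraries labelled Yy1-/- Smc3+/- 11 fell and 6 rose (19.3% and 10.5%, against 13.4% and 11.3% of all genes tested). In Yy1-/-, 15 fell and 5 rose (26.3% and 8.77%, against 15.6% and 14.5%). The median log2 fold changes of the neighbours were -0.18 and -0.26 in the same order. Trpm5, counted among those that fell, had 0 counts in both groups without Yy1 and met the filter only through Yy1+/+. Begain, also counted there, met the filter in enough libraries only through Yy1+/+, so these shares and medians are a description. Neighbours that changed thus went in both directions within 1 domain. Beside Phlda2, Slc22a18, itself imprinted and 2.2 kb away, fell (-1.66 ± 0.35 in the libraries labelled Yy1-/- Smc3+/-, edgeR adjusted p = 0.0048, and -1.32 ± 0.34 in Yy1-/-, edgeR adjusted p = 0.0125). Nap1l4, the next gene at 10.4 kb, had -0.06 and -0.13 and did not pass the test. Cars, the cysteinyl-tRNA synthetase gene at 54.1 kb, rose (0.66 ± 0.18 and 0.59 ± 0.18, edgeR adjusted p = 0.0207 and 0.028). Kcnq1ot1, the paternally expressed antisense RNA of that domain, had 58.6 CPM in the libraries labelled Yy1-/- Smc3+/-, 57 CPM in Yy1-/- and 41.2 CPM in Yy1+/+, with edgeR adjusted p-values of 0.452 and 0.469. Nap1l4 and Kcnq1ot1 were chosen after their values were seen.

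Changed genes closest to the other members went both ways as well. Near H19, Lsp1, which encodes an actin-binding protein of leukocytes, fell at 80.7 kb (-1.05 ± 0.15 in the libraries labelled Yy1-/- Smc3+/-, edgeR adjusted p = 0.000615, and -0.76 ± 0.15 in Yy1-/-, edgeR adjusted p = 0.00328). Beside Grb10, Fignl1, a gene of DNA repair, rose at 121.5 kb (0.92 ± 0.17 and 0.82 ± 0.17, edgeR adjusted p = 0.0026 and 0.00418). Beside Mest, Cep41, which encodes a centrosomal protein, fell at 29.8 kb (-1.3 ± 0.25 and -1.45 ± 0.25, edgeR adjusted p = 0.00316 and 0.00147). Near Ndn, both tested genes, Mkrn3 and Peg12, are imprinted, and neither passed the test. Beside Plagl1, Sf3b5, a subunit of the splicing factor SF3B, rose at 51.3 kb and Phactr2 fell at 76 kb in both groups.

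**Figure D5:**
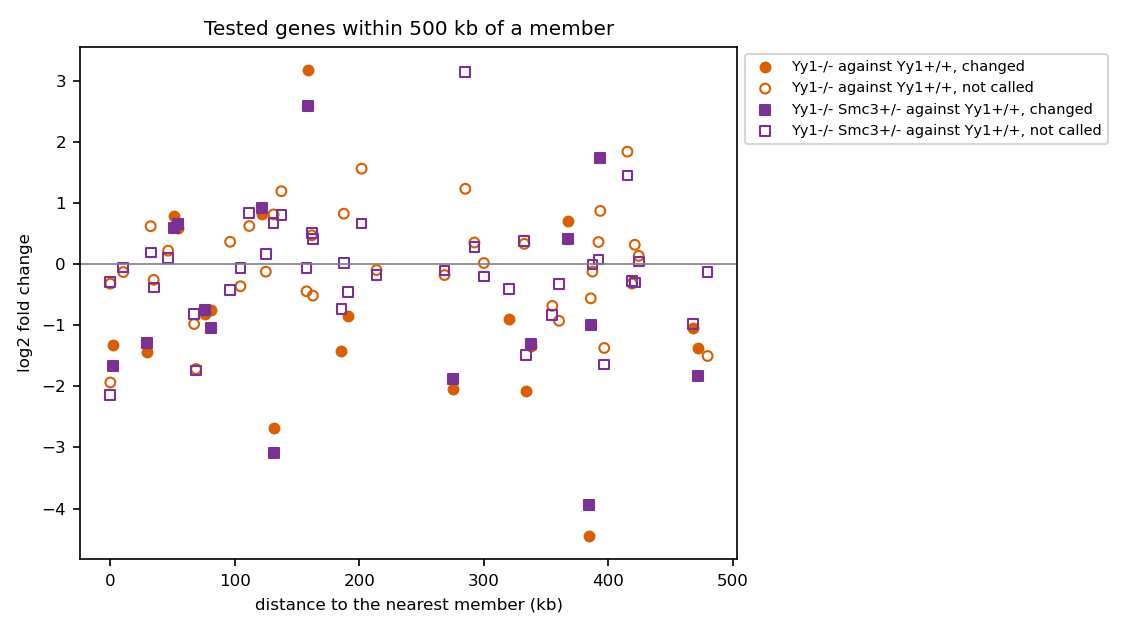
Log2 fold changes (vertical axis) of tested genes within 500 kb of one of the 10 imprinted genes against the distance to the nearest of them in kb (horizontal axis), without Trpm5, which had 0 counts in both groups without Yy1. Circles are Yy1-/- and squares the libraries labelled Yy1-/- Smc3+/-, each against Yy1+/+, and filled symbols, which are genes that changed, lie on both sides of 0.

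Growth signalling by insulin-like growth factors, the pathway of Igf2 and Grb10, was read over a list of 31 genes, of which 25 were tested. In the libraries labelled Yy1-/- Smc3+/-, 6 fell and 5 rose, and in Yy1-/- 8 fell and 5 rose (24% and 20%, against 13.4% and 11.3% of all genes tested, then 32% and 20%, against 15.6% and 14.5%). Igfbp7, a secreted protein that binds these factors weakly, rose to 32.9 ± 12.5 CPM in the libraries labelled Yy1-/- Smc3+/- and 43.4 ± 12.5 CPM in Yy1-/-, against 0.943 ± 0.333 CPM in Yy1+/+ (log2 fold changes 5.12 ± 0.41 and 5.52 ± 0.41, edgeR adjusted p = 2.37e-05 and 2.17e-05). Igfbp4, an inhibitory binding protein, rose by 0.82 ± 0.17 and 0.83 ± 0.17 on the log2 scale (edgeR adjusted p = 0.00499 and 0.00398). Of the RNA-binding proteins that bind Igf2 mRNA, Igf2bp3 rose and Igf2bp2 fell. Igf2bp3 had 11.1 ± 6.44 CPM in the libraries labelled Yy1-/- Smc3+/-, 10.4 ± 5.76 CPM in Yy1-/- and 0.286 ± 0.25 CPM in Yy1+/+ (edgeR adjusted p = 0.000692 and 0.000669). Igf2bp2 had 2.09 ± 0.4, 1.28 ± 0.37 and 7.93 ± 1.43 CPM in the same order (edgeR adjusted p = 0.000863 and 0.000175). Igf2r, the imprinted receptor that clears Igf2, fell by 1.89 and 1.58 on the log2 scale (edgeR adjusted p = 0.0125 and 0.0235), with Yy1+/+ replicate 2 at 4.12 CPM inside the range of the groups without Yy1. Gab1, a docking protein downstream of the receptors, fell by 1.92 and 1.67 (edgeR adjusted p = 0.000736 and 0.00134), and Foxo3, a transcription factor that this pathway holds in check, fell by 1.02 and 1.04 (edgeR adjusted p = 0.022 and 0.0169).

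The genes whose levels followed an imprinted gene most closely over the 12 libraries were listed for the 4 members whose mean reached 5 CPM in a genotype. For Cdkn1c these were Ndn (Pearson r = 0.976 of log2 CPM), Gnas (0.975) and Myl10 (0.972), 2 of them imprinted. Ndn was closest to Lhcgr (0.988), Myl10 (0.985) and Tnfrsf13c (0.979). For Phlda2 they were Pdlim1 (0.989), Unc13b (0.987) and Decr1 (0.983), and for Grb10 they were Mrgpre (0.981), Prdm16 (0.976) and Tspan14 (0.973). The Yy1+/+ libraries form a separate cluster for each of these genes, so the coefficients mostly describe that separation and are no measure of a relation within a genotype.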

How the data were processed

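RNA of sorted LSK cells was taken up with an RNeasy Micro kit and turned into full-length libraries by SMART-Seq v4 chemistry for small inputs, per the labels' protocols; that chemistry does not mark the strand. STAR 2.5.2b, RSEM 1.3.0 and mm10 are named per the submitters' processing notes; their settings and the annotation release are not given in the sources used here. For each of 55487 genes the authors deposited, per the file headers, an expected count, TPM and FPKM as RSEM estimates them; the deposited FPKM values were not used. Expected counts share reads between similar genes, and 6.36 to 7.15% of the listed values in a library were not whole. Symbols and positions came from GENCODE (GRCm38): 55094 IDs matched with their version, 300 in another version and 93 not at all.

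Each expected count was rounded to the nearest integer. The main test was that of edgeR 4.0.16, run in R 4.3.3 (TMM factors, quasi-likelihood fit over all 12 libraries, Benjamini-Hochberg adjustment over the 16649 genes that passed a filter with a minimum count of 10 and total of 15). CPM here are counts over TMM-scaled library totals. H19, Igf2 and Plagl1, which the filter removed, were tested one by one with an exact permutation test over libraries. The fit was checked on simulated counts. Alternatives used DESeq2 1.42.0, limma 3.58.1, other scalings, filters and pseudocounts, and left out libraries. The summed count of 38671354 to 69086104 sets the precision: 3 counts over a group correspond to 0.018 CPM in the libraries labelled Yy1-/- Smc3+/-, 0.0171 CPM in Yy1-/- and 0.0145 CPM in Yy1+/+.

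Groups follow the genotype labels. The 10 genes and all gene lists were chosen with earlier results of these data known. Named from each list were up to 6 changed genes with the smallest p in each comparison and a mean of 5 CPM or more in the higher genotype, and from the neighbours up to 3 changed genes nearest to each imprinted gene.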

Additional observations from a re-analysis of the deposited data

Results flagged for a closer look

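In 5 cases 1 library of a group of 4 stood far from the other 3 by Dixon's ratio, a ratio that chance alone takes past the threshold in about 1 of 20 groups of continuous values. For H19 and Igf2 in the libraries labelled Yy1-/- Smc3+/- and for Plagl1 in Yy1-/-, the other 3 libraries were at 0, so any count at all sets the ratio to its maximum and that rate does not apply. Replicate 2 of the libraries labelled Yy1-/- Smc3+/- stood apart for 3 members at once: H19 at 0.0468 CPM, Igf2 at 0.211 CPM and Dlk1 at 0.281 CPM, where the other 3 libraries had between 0 and 0.0221 CPM. That library had 0.795 CPM of Yy1, within the range of replicates 1 and 4 of its group. In Yy1-/-, Mest was at 2.29 CPM in replicate 1, against 0 to 0.0716 CPM in the others. Plagl1 was at 0.382 CPM in replicate 4 of Yy1-/-, the library with the most Yy1, against 0 in the others. What set these libraries apart was not tested.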

How the results depend on the processing

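No paired analysis was possible because the sample titles carry no replicate numbers shared between genotypes. Over 25 other settings for each gene, Meg3, Cdkn1c, Phlda2, Grb10 and Ndn kept their direction and their call in both groups without Yy1, set against Yy1+/+. Dlk1 kept its direction, with adjusted p-values up to 0.0692 in the libraries labelled Yy1-/- Smc3+/- and 0.0563 in Yy1-/-, lost only when single libraries were left out. The number of the 10 genes that changed was 5 to 6 in the libraries labelled Yy1-/- Smc3+/- and 5 to 7 in Yy1-/-. In the main fit, 24.7% of all genes tested changed in the former and 30.1% in the latter. These shares moved with the setting, so the numbers of members are a description. Other imprinted genes that changed in Yy1-/- numbered 17 rather than 10, of 30 tested, on either log2 TPM scale, where the median of all genes shifted by -0.18 with a pseudocount of 1 and -0.26 with 0.1. On log2(TPM + 1) more of all genes tested were called lower too, as given above. Within 1000 kb, 27 and 31 neighbours of 83 tested changed in the libraries labelled Yy1-/- Smc3+/- and in Yy1-/-, against 17 and 20 of 57 within 500 kb. Of all genes tested, 24.7% and 30.1% changed in the same order.

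When the libraries labelled Yy1-/- Smc3+/- were set against Yy1-/-, 53 of all genes passed with DESeq2, 169 without the 3 libraries that held the most Yy1 reads, where 1 member (Ndn) passed, and 3 to 6 with single libraries left out, against 6. Of the members, Dlk1, Phlda2 and Mest changed sign there, while Cdkn1c, Grb10 and Ndn stayed above 0. Dlk1 was at -0.14 with voom, -0.01 (-0.0061) on log2(TPM + 0.1) and -2.9 to 1.65 with single libraries left out; Phlda2 was at 3.66 without those 3 libraries; Mest was at 1.75, 0.25 and -1.62 to 3.7 under voom, log2(TPM + 0.1) and single libraries left out. Against Yy1+/+, Mest in Yy1-/- was at -1.0 with voom, -0.071 on log2(TPM + 0.1) and -3.16 to 1.91 with single libraries left out, and in the libraries labelled Yy1-/- Smc3+/- at -0.25 to 1.1 with single libraries left out. The causes were not tested. An edgeR option added after seeing the data, its newer quasi-likelihood fit, called 4975 and 5854 genes in the libraries labelled Yy1-/- Smc3+/- and in Yy1-/- and the same number of members, 6 in each. Members under about 1 CPM are limited by depth: H19, Igf2, Mest and Plagl1 rest on 93 counts or fewer in every group.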

Other observations

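Relatives of the imprinted genes that are not imprinted themselves were read from a list of 12, of which 11 were tested. In both groups without Yy1, 2 fell and 1 rose (18.2% and 9.09%), where of all genes tested 13.4% fell and 11.3% rose in the libraries labelled Yy1-/- Smc3+/- and 15.6% and 14.5% in Yy1-/-. Maged1 and Maged2, MAGE family genes like Ndn, fell: Maged1 had 15 ± 5.09 CPM in the libraries labelled Yy1-/- Smc3+/-, 11 ± 8.01 CPM in Yy1-/- and 154 ± 41 CPM in Yy1+/+ (edgeR adjusted p = 0.000687 and 0.00033), and Maged2 had log2 fold changes of -1.55 and -1.48. Phlda3, a relative of Phlda2 and a target of p53, rose, with 38.1 ± 8.29 CPM in the libraries labelled Yy1-/- Smc3+/-, 44.7 ± 15 CPM in Yy1-/- and 6.73 ± 0.57 CPM in Yy1+/+ (log2 fold changes 2.5 ± 0.25 and 2.73 ± 0.25, edgeR adjusted p = 8.82e-05 and 5.02e-05). Phlda1, another relative of Phlda2, did not pass the test, with log2 fold changes of -1.08 in the libraries labelled Yy1-/- Smc3+/- and -1.85 in Yy1-/- (edgeR adjusted p = 0.333 and 0.0941). Of the relatives of Phlda2 on the list, Phlda3 alone thus passed the test.

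Of 20 genes that set, keep or erase imprints, 18 were tested. Among them, in the libraries labelled Yy1-/- Smc3+/-, 3 fell and 4 rose, and in Yy1-/- 3 fell and 2 rose (16.7% and 22.2%, against 13.4% and 11.3% of all genes tested, then 16.7% and 11.1%, against 15.6% and 14.5%). Tet1, which oxidises methylated cytosine, fell in both, at 9.29 ± 4.07 CPM in the libraries labelled Yy1-/- Smc3+/-, 9.51 ± 5.39 CPM in Yy1-/- and 27.4 ± 8.17 CPM in Yy1+/+ (edgeR adjusted p = 0.027 and 0.0251). Arid4a, known to act on the Prader-Willi domain, fell by 0.53 and 0.58 on the log2 scale. Ctcf, the insulator protein of the H19 and Igf2 domain, rose by 0.42 and 0.32 (edgeR adjusted p = 0.0162 and 0.0469), and Hells, a chromatin remodeller needed for DNA methylation, rose by 0.89 and 0.74. Zfp57, which protects methylation at imprinting control regions, was the third gene that fell, and was chosen after its values were seen. Its level was 0.198 CPM in the libraries labelled Yy1-/- Smc3+/-, 0.164 CPM in Yy1-/- and 1.72 CPM in Yy1+/+. Zfp57 met the filter on low counts in enough libraries only through Yy1+/+, so its call and the shares that count it are a description.

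Of the other imprinted genes, 23 of 53 were not tested, and 11 of these had 0 counts in all 12 libraries. Another 5 had counts in Yy1+/+ and 0 in both groups without Yy1. They were Rian, the non-coding RNA downstream of Meg3, with 16, 6, 10 and 5 counts in the Yy1+/+ libraries, Peg3 with 0, 18, 7 and 26, Zdbf2 with 21 in 1 library, Nap1l5 with 11 in 1 library and Snurf with 3 in 2 libraries. Rasgrf1 went the other way, with 30 counts in 2 libraries labelled Yy1-/- Smc3+/-, 55 in 2 Yy1-/- libraries and 0 in Yy1+/+. These genes were chosen after their values were seen, and the counts were not tested.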
